A study of Rattus norvegicus with 3 samples.

Results

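In the cerebellum (Cll) of a single hyperbilirubinemic Gunn rat pup (jj), 2527 stretches of chromatin carried the acetylation of histone 3 at lysine 14 (H3K14Ac), were called a second time when the normobilirubinemic library (ctrl) was used as the control, and had no peak in ctrl or in the other jj library. They are named supported regions here. They were chosen by the peak calls themselves, as the peaks of library jj replicate 1 on chromosomes 1 to 20 and X that overlapped, by 1 bp or more, a peak of that library called against ctrl, and no peak in the own lists of ctrl and jj replicate 2. They make up 8.59% of the 29428 peaks of that library on these chromosomes, where the whole list, with unplaced sequences of the rn4 build, holds 31120. They are set beside 11115 peaks of the same library that were absent from all the other 4 lists, named unsupported peaks here.

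All animals were Gunn rats (Hds Blue:Gunn-UDPGTj) at postnatal day 9 (P9), and chromatin was precipitated with an H3K14Ac antibody from Merck Millipore. Library jj replicate 1 came from 1 jj animal, jj replicate 2 from a pool of 3 jj animals, and ctrl from a pool of 3 normobilirubinemic animals. The strain carries the j allele of the bilirubin-conjugating enzyme, jj pups have it in both copies and are jaundiced, and ctrl pups are normobilirubinemic littermates whose genotype the labels do not give. Each pool is 1 value, the jj libraries were made in 2 runs and ctrl in 1 run, and the labels name no treatment and no sex.

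H3K14Ac is a mark of open chromatin. It is laid down by lysine acetyltransferases, removed by histone deacetylases, and is commonly found at active promoters and enhancers, where acetylated tails are read by bromodomain proteins. In the postnatal Cll most nuclei belong to granule neurons and their dividing precursors, and a peak in whole tissue is a sum over all its cells. Fewer cells with an acetylated site and less acetylation per cell cannot be told apart in such a library.

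Each of the 2527 regions came from 1 animal in 1 library, and neither the other jj library nor ctrl gave a second value at them, because the peak lists hold no value where no peak was called. For this reason jj was not tested against ctrl, and a property of the animal, of the library and of the run cannot be told apart. Among all 29428 peaks of jj replicate 1 on these chromosomes, 39.6% overlapped a peak called against ctrl. Among the 13642 with neither a ctrl nor a jj replicate 2 peak, 18.5% did, and these are the supported regions. As this call is part of the rule, nothing is read from that share. None of the 2527 regions overlapped a peak that jj replicate 2 had against ctrl, in a list of only 125 peaks on these chromosomes. A further 217 peaks of jj replicate 1 were called against ctrl without a ctrl peak but had a peak in jj replicate 2, and they are not counted here.

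The list called against ctrl held 2915 peaks on the same chromosomes with neither a ctrl nor a jj replicate 2 peak. Of these, 2577 lay on an own peak of jj replicate 1, and 338 (11.6%) did not, so that they were called only with ctrl as the control. The 2577 exceeded by 49 the number of peaks called against ctrl that overlapped the 2527 regions. How many of the 2577 lay on an own peak that reached a ctrl or jj replicate 2 peak was not counted. Each supported region overlapped 1 peak called against ctrl, except 1 region with 2 or more. Such a peak can reach beyond the region, and it was not itself required to be free of ctrl and jj replicate 2 peaks.

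The strength of the supported regions is a description, because the calls that chose them rest on these values. Fold enrichment is the ratio of fragments at the peak to those expected by MACS2, with 1 added to each, averaged over the peak. In the own list the median fold of the supported regions was 3.89, with 90% of them between 3.12 and 7.24, and the highest was 10.4. Unsupported peaks had a median fold of 3.37, and the 15786 peaks of jj replicate 1 with a ctrl or jj replicate 2 peak had a median of 7.56. The supported regions thus lay between the unsupported peaks and the peaks found in other libraries. Against ctrl their median fold was 3.95, and 1430 of 2527 (56.6%) had a higher fold there than in the own list. The expected coverage under a fold is not the same for every peak or list, so these folds are not ratios of jj to ctrl.

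The lists hold no read totals, so depth is unknown, but a lower bound of the height of a peak can be worked back. MACS2 used a background of 0.589 fragments per position in jj replicate 1, as computed from the commonest combination of fold and −log10 p among its peaks. At that background, the median height of the supported regions was at least 5.19 fragments per position and that of the unsupported peaks at least 4.36. These heights are lower bounds, as a peak judged over a higher local background has more fragments than the same fold gives here. The most frequent peak of the own list stood at a height of 4 fragments, and the most frequent peak of the list called against ctrl at 5. By these bounds, at most 1139 of the supported regions (45.1%) had a height under 5, against at most 79.4% of unsupported peaks, and at least 183 (7.24%) had a height over 10, against at least 0.378%. How many fragments the regions rested on is therefore not known from the lists.

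The −log10 q (the false discovery rate that MACS2 gives a peak) had a median of 2.45 in the supported regions and of 1.53 in unsupported peaks. It was under 3 in 59.6% of the supported regions and in 90.1% of the unsupported peaks. Among peaks with neither a ctrl nor a jj replicate 2 peak, the supported share rose with strength, from 410 of 5727 (7.16%) at a −log10 q from 1 to 1.5 to 594 of 976 (60.9%) at 5 and more. The other 382 of these 976 peaks were not called against ctrl. The strongest 2 of them, named after their values were seen, lay at chr9:1630244-1630883, with a −log10 q of 33.7 and a fold of 6.81, and at chr15:13792911-13793481, with a −log10 q of 25.7 and a fold of 6.90. Both exceeded the strongest supported region, which had a −log10 q of 18.9 in the own list.

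Of the 5 supported regions with the highest fold against ctrl, the first was chr8:27464602-27464910. It is 309 bp wide, and its fold was 14.8 against ctrl and 7.36 in the own list, over almost the same bases. The nearest ctrl peak was 48.3 kb away and the nearest shared region 531 kb away. It had the largest gain in fold of all supported regions, 7.43 from the own list to the list against ctrl. The second, chr7:123881345-123881890, had a fold of 11.2 against ctrl and 10.2 in the own list, and it lay 53.8 kb from a shared region. Its folds differed by less than those of the first, with a height of at least 15.3 fragments in the own list.

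The remaining regions of this kind had other libraries' peaks at a shorter distance. At chr1:38323599-38324111 the fold was 9.91 against ctrl and 7.55 in the own list, with the nearest ctrl peak at 23.8 kb. At chr14:1980607-1981185 it was 9.67 and 9.73, with the nearest ctrl peak at 35.7 kb. At chr5:156334096-156334671 it was 8.97 and 8.96, with the nearest ctrl peak at 16.3 kb. On chromosomes 14 and 5 the folds of both lists were thus nearly equal. The 5 regions were from 309 to 579 bp wide. The files pair no gene with a peak and no rn4 annotation was used here, so genes were not assigned here.

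The rule turns on small overlaps at its edges. Just inside it, the regions with the fewest bases under a peak called against ctrl were chr1:19425878-19426175 with 61 bp, chr4:178587828-178588125 with 63 bp and chr3:1089396-1090912 with 101 bp. Just outside it, chr4:29341415-29342493 was called against ctrl but had 4 bp under a ctrl peak, chr12:46724690-46724985 had 11 bp and chr15:6927932-6928318 had 17 bp. The unsupported peaks that came nearest to a peak called against ctrl without touching it were chr12:2968845-2969332 at 865 bp, chr7:63855761-63856088 at 1192 bp and chr3:53852285-53852625 at 1208 bp. By the overlap with a peak called against ctrl, few regions were near the edge. In 2333 of the 2527 regions (92.3%), 50% or more of the bases lay under that peak, and the median share of bases was 86.0%. This does not describe the edge set by ctrl and jj replicate 2 peaks, or the strength of the call. With a −log10 q of at least 2 against ctrl, 1470 regions were left.

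Width was the first property set beside the unsupported peaks. The supported regions had a median width of 476 bp (95% interval of the median 467 to 482), with quartiles of 395 and 704 bp, and together covered 1.54 Mb. Unsupported peaks had a median of 423 bp (420 to 427) with quartiles of 341 and 689 bp. Peaks with a ctrl or jj replicate 2 peak were wider than both, at a median of 676 bp. Of the supported regions 12.4%, and of the unsupported peaks 12.1%, were wider than 1000 bp, and the widest 5% began at 1370 and 1291 bp. The intervals treat peaks as independent and cover counting error only, and peaks of 1 library are not replicates, so the difference in width was not tested.

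Among supported regions, those weaker by −log10 q were the wider. This value is a mean over the peak, so it is not independent of width. At a −log10 q from 1 to 1.5 their median width was 600.5 bp, and from 1.5 to 2 it was 553 bp. From 2 to 3, from 3 to 5, and at 5 and more, the medians were 471, 448 and 465 bp. In the same order, the unsupported peaks had medians of 477, 416, 383, 384 and 404 bp, so the supported regions were wider in each of the 5 classes, and the 95% intervals of the medians did not overlap in any of them. A wider peak offers more bases to an overlap of 1 bp, and the part of this in the difference was not tested. The peaks called against ctrl at these regions had a median width of 381 bp. They lay wholly inside the region in 2236 of 2527 (88.5%) and reached beyond it in the other 291, and the widest was 5254 bp.

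The 3 widest supported regions were weak. The widest, chr15:38420252-38423296, spans 3045 bp with a fold of 3.39 and a −log10 q of 1.59 in the own list, and only 516 bp of it lay under a peak called against ctrl. At chr3:93553188-93555929, which spans 2742 bp, the fold was 3.14 and 724 bp were under such a peak. At chr6:62691840-62694439, which spans 2600 bp, the fold was 3.43 and 1293 bp were under one. In each of these a shorter stretch of the region was called against ctrl.

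Most supported regions had no other supported region nearby. MACS2 joins nearby stretches, and no 2 peaks of jj replicate 1 were closer than 1149 bp, so clusters can be seen only beyond that distance. The nearest other supported region was at a median of 296 kb (95% interval 269 to 327). Only 85 of 2527 (3.36%, 95% exact binomial interval 2.70 to 4.14) had another within 10 kb. For unsupported peaks the nearest of their own kind was at 69.6 kb and 7.37% had one within 10 kb, but they are the larger set, and a larger set has nearer neighbours. With peaks that have a ctrl peak let in, the share was 5.97%, in a set of 3484. The part of set size in this rise was not tested.

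Counting the same neighbour around both sets avoids this. Within 10 kb there were 3.40 other supported regions per 100 supported regions, and 1.77 supported regions per 100 unsupported peaks. Unsupported peaks were found at nearly the same rate around both, 7.80 per 100 supported regions and 7.59 per 100 unsupported peaks. The largest contrast was in peaks of jj replicate 1 that had a ctrl or jj replicate 2 peak, which occurred at 19.2 per 100 supported regions and at 6.70 per 100 unsupported peaks. A supported region thus had more supported regions and more peaks found in other libraries around it than an unsupported peak had. These rates are not adjusted for strength.

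Chained at gaps of up to 10 kb, the supported regions formed 2442 singles, 41 pairs and 1 run of 3. The run of 3 lies on chromosome 20 from 11202964 to 11224033, a span of 21.1 kb. Its regions, chr20:11202964-11203671, chr20:11213278-11214105 and chr20:11223264-11224033, had folds of 5.47, 5.70 and 6.24 in the own list and of 4.64, 4.57 and 5.64 against ctrl. All 3 were stronger than the median supported region on both scales, and the nearest ctrl peak was between 36.4 and 46.7 kb from them. Of the pairs, those with the shortest span were chr4:173216699-173217048 with chr4:173218304-173218709, and chr1:252615694-252616070 with chr1:252617492-252617865, with spans of 2.01 and 2.17 kb. The regions of both pairs were from 28.5 to 34.2 kb from a peak of each other library.

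Between the sets as a whole, the distance to shared regions differed more than width did. Shared regions are the 11189 stretches on these chromosomes where the merged peaks of all 3 libraries overlapped, with a median width of 777 bp. The nearest one was at a median of 121 kb from a supported region (95% interval 110 to 131) and at 194 kb from an unsupported peak (187 to 202). Of the supported regions, 276 (10.9%, 9.73 to 12.2) had a shared region within 10 kb, against 394 of the unsupported peaks (3.54%, 3.21 to 3.91). Within 5 kb the shares were 5.46% and 0.738%, and within 100 kb they were 45.9% and 33.7%. As a ratio the contrast was thus greater at 5 kb than at 100 kb, and as a difference in percent it was smaller. The peaks compared are of 1 library and this difference was not tested.

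Strength moved with this distance. The supported regions within 10 kb of a shared region had a median −log10 q of 4.78, those from 10 to 100 kb of 3.41, those from 100 to 1000 kb of 2.03, and those farther away of 1.91. In unsupported peaks the corresponding medians were 2.19, 1.64, 1.48 and 1.43. The median distance was therefore also taken within classes of −log10 q. It was 222 kb for supported regions and 234 kb for unsupported peaks from 1 to 1.5, and 238 and 218 kb from 1.5 to 2. It was 171 and 162 kb from 2 to 3, 56.7 and 59.7 kb from 3 to 5, and 35.6 and 42.5 kb at 5 and more. At like strength the 95% intervals of both medians overlapped in all 5 classes, with no fixed order, so the contrast in the median distance of the sets as a whole was not seen within classes of strength.

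The share within 10 kb was also taken by class. It was 3.90% in supported regions and 1.90% in unsupported peaks from 1 to 1.5, 3.07% and 2.58% from 1.5 to 2, and 7.13% and 4.46% from 2 to 3. It was 17.3% and 10.2% from 3 to 5, and 21.7% and 17.5% at 5 and more. The supported share was the higher in all 5 classes, by a smaller ratio in each than in the sets as a whole. The 95% exact binomial intervals of both sets overlapped from 1.5 to 2, from 2 to 3 and at 5 and more, and were apart only from 3 to 5 (13.9 to 21.3 against 8.09 to 12.7). From 1 to 1.5 they overlapped slightly (2.25 to 6.26 against 1.55 to 2.30), with 16 supported regions behind the share.

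The shared regions next to the supported regions were ordinary in width. The nearest shared region had a median width of 758 bp for supported regions and of 761 bp for unsupported peaks, and it was 1 kb or wider in 27.8% and 28.6%, against 26.9% of all shared regions. Of all shared regions, 71.0% overlapped a peak of jj replicate 1 called against ctrl. The 71.0% counts each shared region once, whereas the shares that follow count a shared region for every peak nearest to it. The nearest shared region was called against ctrl for 61.1% of the supported regions and for 59.3% of the unsupported peaks, both below 71.0%. Within 10 kb it was called for 203 of 276 supported regions (73.6%, 67.9 to 78.7) and for 257 of 394 unsupported peaks (65.2%, 60.3 to 69.9), intervals that overlap each other.

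The 3 supported regions nearest to a shared region were chr7:67033172-67033494 at 1100 bp, chr3:143084650-143084979 at 1119 bp and chr10:12998693-12999491 at 1132 bp. These distances are close to the smallest gap between own peaks. Their folds in the own list were 4.05, 2.92 and 3.11. The −log10 q of the region on chromosome 7 was 8.71, the highest of these 3. The 3 farthest were chr2:73284959-73285295, chr13:62103726-62104095 and chr2:74429684-74430072, at 2746, 2585 and 2448 kb, with folds of 3.51, 3.62 and 4.21. Both regions on chromosome 2 lie in the same stretch without shared regions, although the first has a ctrl peak at 82.1 kb and a jj replicate 2 peak at 81.8 kb.

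Each shared region holds a ctrl and a jj replicate 2 peak, and these lists hold further peaks, so at the median their nearest peak was nearer. This does not hold for every region, as the edge of a shared region can lie closer than the peaks in it. At chr7:123881345-123881890 the shared region was at 53782 bp, the ctrl peak at 53856 bp and the jj replicate 2 peak at 53849 bp. The nearest ctrl peak was at a median of 37.9 kb from a supported region and 51.3 kb from an unsupported peak, and the nearest jj replicate 2 peak at 74.3 and 107 kb, in lists of 20871 and 13537 peaks on these chromosomes. A ctrl peak lay within 1 kb, without overlap, of 37 supported regions, and a jj replicate 2 peak of 11. The closest ctrl peak was at 174 bp and the closest jj replicate 2 peak at 61 bp. Absence from another list is therefore absence of an overlapping call, and for 48 regions a call stood close by.

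Over the chromosomes there were 0.930 supported regions per Mb, counted up to the last peak of each chromosome. Their density ranged from 0.714 per Mb on chromosome 9 to 1.16 per Mb on chromosome X. Shared regions ranged from 1.62 per Mb on chromosome X to 7.90 on chromosome 10, and unsupported peaks from 2.36 on chromosome 10 to 6.26 on X. Across the 21 chromosomes, the density of supported regions had a Pearson r of 0.17 and a Spearman rho of 0.11 with that of shared regions, whereas the density of unsupported peaks had an r of −0.82 and a rho of −0.66 with it. These are descriptions, and the points share 1 library and its mapping.

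The same was computed in the 534 whole windows of 5 Mb, which leave out the end of each chromosome. Supported regions had an r of 0.25 and a rho of 0.05 with shared regions, and unsupported peaks an r of −0.41 and a rho of −0.54. In the 134 windows with the fewest shared regions there were 4.62 supported regions and 26.5 unsupported peaks per window. In the next classes of 133 windows each, supported regions fell to 4.45 and 3.75 and unsupported peaks to 22.4 and 17.5. In the 134 with the most there were 5.67 and 15.3, so unsupported peaks fell throughout whereas supported regions fell over the first 3 classes and were most numerous in the last. Of both sets together, supported regions made up 14.9%, 16.6%, 17.6% and 27.0% in this order. The windows with the most supported regions were on chromosome 7 from 10000001 to 15000000 with 18, beside 97 shared regions, on chromosome 20 from 10000001 to 15000000 with 16, and on chromosome 1 from 200000001 to 205000000 with 15. A window held a median of 4, and 13 windows held none.

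By chromosome, supported regions were 28.3% of both sets on chromosome 10, 29.0% on chromosome 12 and 26.1% on chromosome 19, the chromosomes where their median −log10 q was also highest, at 4.51, 4.83 and 4.53. They were 15.2% on chromosome 11 and 15.6% on chromosome X, where the median was 2.29 and 2.11. Not all other chromosomes followed this order: chromosome 13 had the lowest median, 2.05, with 18.1%, and chromosome 18 had 2.41 with 22.8%. On chromosomes 10, 12 and 19 the median distance to a shared region was 24.2, 32.2 and 33.1 kb, and on chromosome X it was 289 kb. Chromosome 18 had the most supported regions relative to all peaks of jj replicate 1, with 112 per 1000, followed by X with 110. Chromosome 10 had the fewest, with 68.6 per 1000, at a density of 0.931 per Mb, and its high share of both sets went with the lowest density of unsupported peaks.

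Chromosome X held 186 supported regions, which are 7.36% of them, and 9.05% of the unsupported peaks. It held 5.72% of all peaks of jj replicate 1 on these chromosomes, 4.54% of the ctrl peaks and 3.09% of the jj replicate 2 peaks. Of the jj replicate 1 peaks with ctrl as the control, on which support rests, 3.18% were on this chromosome. Among the own lists the share was thus highest in the library of 1 animal, whereas its list against ctrl was below ctrl and close to jj replicate 2. The labels used here give no sex for the animals, and the part of this difference in the regions on X was not tested. Without chromosome X, 2341 supported regions were left, with a median distance to a shared region of 109792 bp.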

How the data were processed

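ChIP-Seq of H3K14Ac was available as peak lists of 3 libraries. The authors mapped reads to rn4 with bowtie2, filtered duplicates and called broad peaks with MACS2, with versions and options not given in the sources used here. The labels also name HOMER and FastQC. The deposited fold enrichment is a ratio to the coverage expected by MACS2, and the −log10 q-value and −log10 p-value deposited by the authors are, like it, means over the peak. Of the 5 lists, 3 are own lists of a library and the others are jj lists with ctrl as the control. They give no read totals, so depth is unknown.

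Overlaps and gaps were computed with Python 3.11.15, numpy 2.4.6, pandas 2.3.3 and scipy 1.17.1, and the functions were tested on simulated data. Positions count from 1. Gaps are between edges. Background coverage was solved from the commonest peak of a list, with a pseudocount of 1 on height and background in the fold and a Poisson p. Intervals (95%) are exact binomial for shares and from order statistics for medians; they treat peaks as independent and cover counting error only. No test was made, because members are peaks of 1 library. The members, classes and comparisons were chosen with earlier results of these data known. Positions named are the 5 highest folds against ctrl, the 3 widest, the 3 longest runs (most regions, then shortest span), the 3 nearest to and farthest from a shared region and those at the edges of the rule; 2 strong unsupported peaks were added after their values were seen. Other rules for overlap, limits on q, other sequences, other distances and each other library left out were the alternatives. Annotation on rn4 was not used here.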

Additional observations from a re-analysis of the deposited data

How the results depend on the processing

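Of 80 alternatives, 34 stayed within 1.5 times for the number of supported regions, or within its 95% interval for other values, and 46 did not. Among the 34 were those asking for absence also from jj replicate 2 called against ctrl. They could change nothing, as no supported region overlapped that list. Leaving out chromosome X, and all alternatives for the share with a shared region within 10 kb, were chosen after seeing the data. The number depended on the limit on −log10 q: it was 1596 at 2 or more in the own list, and 1470 and 794 at 2 and 3 or more against ctrl. Fewer peaks enter under a limit by construction. It stayed within 1.5 times under other overlap rules, on all sequences and without either other library.

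The median width was 461 bp with the own limit of 2, 454 bp with either limit against ctrl, and 492 bp with ctrl and jj replicate 2 peaks counted only at 3 or more. By class of own −log10 q it was 600.5 bp from 1 to 1.5, 553 bp from 1.5 to 2, 448 bp from 3 to 5 and 465 bp at 5 or more. The median distance to a shared region was 72597 bp with the own limit of 2, 71536 and 39276 bp with limits of 2 and 3 against ctrl, and 96144 bp with the limit of 3 on the other libraries. It was 222153, 237889, 170911, 56708 and 35553 bp over the 5 classes, 109792 bp without chromosome X, 37925 bp to any ctrl peak and 403379 bp to shared regions of 1 kb or wider.

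The share with another supported region within 10 kb was 2.39% with the limit of 3 against ctrl and 5.31% with the limit of 3 on the other libraries. It was 0% within 1 kb by construction, 14.2% within 50 kb, 24.8% within 100 kb, and 23.7% for any peak of the own list. The share with a shared region was 1.46%, 5.46%, 33.1% and 45.9% within 2, 5, 50 and 100 kb, and within 10 kb it was 3.90%, 3.07%, 7.13%, 17.3% and 21.7% over the 5 classes. It was 15.3% with the own limit of 2, 16.1% and 22.8% with limits of 2 and 3 against ctrl, and 15.2% with the limit of 3 on the other libraries. Leaving out jj replicate 2 or ctrl as a list to be absent from gave median widths of 479 to 508.5 bp, shares of 3.75% to 5.97% with another within 10 kb, shares of 11.3% to 14.5% with a shared region within 10 kb, and median distances of 86059 to 114344 bp, the value farther from the main one always without ctrl. The list called against ctrl contains ctrl in any case. For changes not by construction, the cause was not tested. Depth at sites without a peak is unknown, so how many supported regions had nearly enough fragments in ctrl or jj replicate 2 to be called is not known.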

Other observations

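The 338 peaks called only with ctrl as the control, outside any peak of the own list of jj replicate 1 and without a ctrl or jj replicate 2 peak, make up 11.6% of the 2915 peaks called against ctrl that no other library shared. They are not among the supported regions, although the list against ctrl holds them on the same terms.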
